A study of Mus musculus with 48 samples.

Results

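The genes described here are 10 activity-induced immediate early genes, Arc, Egr1, Egr2, Egr3, Egr4, Fos, Fosb, Junb, Npas4 and Nr4a1, out of 48526 genes counted in the series. They were picked by symbol, with earlier age results of the same libraries known, so their age differences are given as descriptions and only the comparisons between fractions are tested. The libraries came from the cortex of 12 male C57BL/6JRj mice, 4 of them 3 weeks old (3w), 4 of 5 months (5m) and 4 of 18 months (18m). The protocol and the methods call the middle age 5 months, and a field of the labels calls it 6 months. Each mouse gave 4 libraries: RNA of total homogenate (TH) and of synaptosomes (SYN), each before a sucrose cushion (input) and from the ribosome-containing pellet under it (SC). Synaptosomes are pinched-off nerve endings with attached postsynaptic membrane that are enriched on a sucrose gradient. No drug, stimulus or behavioural task is given for any of the mice, which were killed by cervical dislocation.

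Immediate early genes are switched on within minutes of neuronal firing, from transcription factors that are already present, so their RNA does not need new protein synthesis first. Calcium entry and kinase signalling activate CREB and the serum response factor, which bind the promoters of these genes. Fos, Fosb and Junb code for subunits of the AP-1 transcription factor, Egr1 to Egr4 for zinc finger transcription factors, Npas4 for a bHLH-PAS factor that responds to calcium and Nr4a1 for an orphan nuclear receptor. Arc differs from the other 9, since it codes for a cytoskeleton-associated protein that acts at synapses, and its RNA is known to travel into dendrites.

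All of the 7 members with an entry in the RefSeq promoter table (GRCm38.p6), Egr2, Egr4, Fos, Fosb, Junb, Npas4 and Nr4a1, held at least 1 copy of TGACG, the core of the cAMP response element that CREB binds, on either strand within the 250 bases before a transcription start. TGACG was present in 17.8% of all 32851 starts in the table and in 19.8% of its 27025 genes. The full palindrome TGACGTCA, which contains that core, was in none of the 7 members and in 1.55% of starts, the CArG box of the serum response factor was in Egr2 and in 1.47% of starts, and TATAAA was in Fos and in 12.4% of starts. The 9 letters GCGTGGGCG, a binding site of the EGR factors themselves, were in none of the 7 members and in 0.536% of starts. Bases more than 250 before a start were not searched, so sites further out would be missed. The promoters of Fos, Fosb, Junb and Egr4 are printed to show where these letters lie. Capitals mark TGACG, its reverse complement CGTCA and TATAAA. The Fos bases lie at chr12:85473640-85473889 (plus strand), with TGACG starting 129 and 66 bases and TATAAA 33 bases before the start. Those of Fosb lie at chr7:19310046-19310295 (minus strand), with the core 60 bases before the start, those of Junb at chr8:84978749-84978998 (minus strand), with the core 106 bases before it, and those of Egr4 at chr6:85513590-85513839 (minus strand), with the reverse core 177 and 109 bases before it.
Fos: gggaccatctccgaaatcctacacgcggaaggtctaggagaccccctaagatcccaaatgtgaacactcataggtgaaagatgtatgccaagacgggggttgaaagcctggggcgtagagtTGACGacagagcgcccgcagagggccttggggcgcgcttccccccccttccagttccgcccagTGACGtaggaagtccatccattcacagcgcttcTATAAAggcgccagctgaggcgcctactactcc
Fosb: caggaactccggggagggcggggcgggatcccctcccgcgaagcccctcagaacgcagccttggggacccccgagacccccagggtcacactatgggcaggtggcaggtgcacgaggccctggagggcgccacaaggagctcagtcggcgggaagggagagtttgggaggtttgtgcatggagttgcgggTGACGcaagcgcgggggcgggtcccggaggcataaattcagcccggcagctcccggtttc
Junb: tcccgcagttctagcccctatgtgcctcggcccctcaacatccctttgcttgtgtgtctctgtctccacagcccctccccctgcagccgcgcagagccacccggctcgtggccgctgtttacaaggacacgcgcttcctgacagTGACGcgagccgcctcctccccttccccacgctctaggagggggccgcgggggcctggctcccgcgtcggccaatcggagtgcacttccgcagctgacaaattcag
Egr4: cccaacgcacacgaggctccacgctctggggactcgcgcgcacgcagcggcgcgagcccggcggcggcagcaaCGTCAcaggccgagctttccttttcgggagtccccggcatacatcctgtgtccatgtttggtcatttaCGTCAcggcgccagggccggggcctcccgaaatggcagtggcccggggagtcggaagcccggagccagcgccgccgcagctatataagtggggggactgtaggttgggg

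Between 1780267 and 18590040 reads per library fell on genes. Counts of the members ranged from 3 for Egr2 to 7547 for Egr1 in a library, and Egr2 had fewer than 10 reads in 5 of 48 libraries, while no other member did. Levels are given as CPM, a gene's reads relative to the library total after TMM scaling over all libraries. Divided by the exonic length in kb, Arc had the highest mean in 10 of the 12 combinations of fraction and age and Egr1 in SC_TH at 3w and 18m. In input_TH at 5m the mean level per kb was 77.0 ± 11.9 CPM (SD, n = 4) for Arc, 43.7 ± 4.28 for Egr1, 25.5 ± 1.89 for Nr4a1, 23.5 ± 3.53 for Junb and 15.7 ± 0.833 for Egr4. Egr3, Fos, Npas4, Fosb and Egr2 followed, with Egr2 at 2.96 ± 0.489. In this order the 4 mice of neighbouring genes overlapped for Nr4a1 and Junb, for Egr3 and Fos, and for Fosb and Egr2. Junb shares 173 of its 2301 exonic bases with Prdx2 on the opposite strand, and strand was not used in counting. Reads in these shared bases could not be told apart by strand, and their part in the counts of Junb was not tested.

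**Figure D1:**
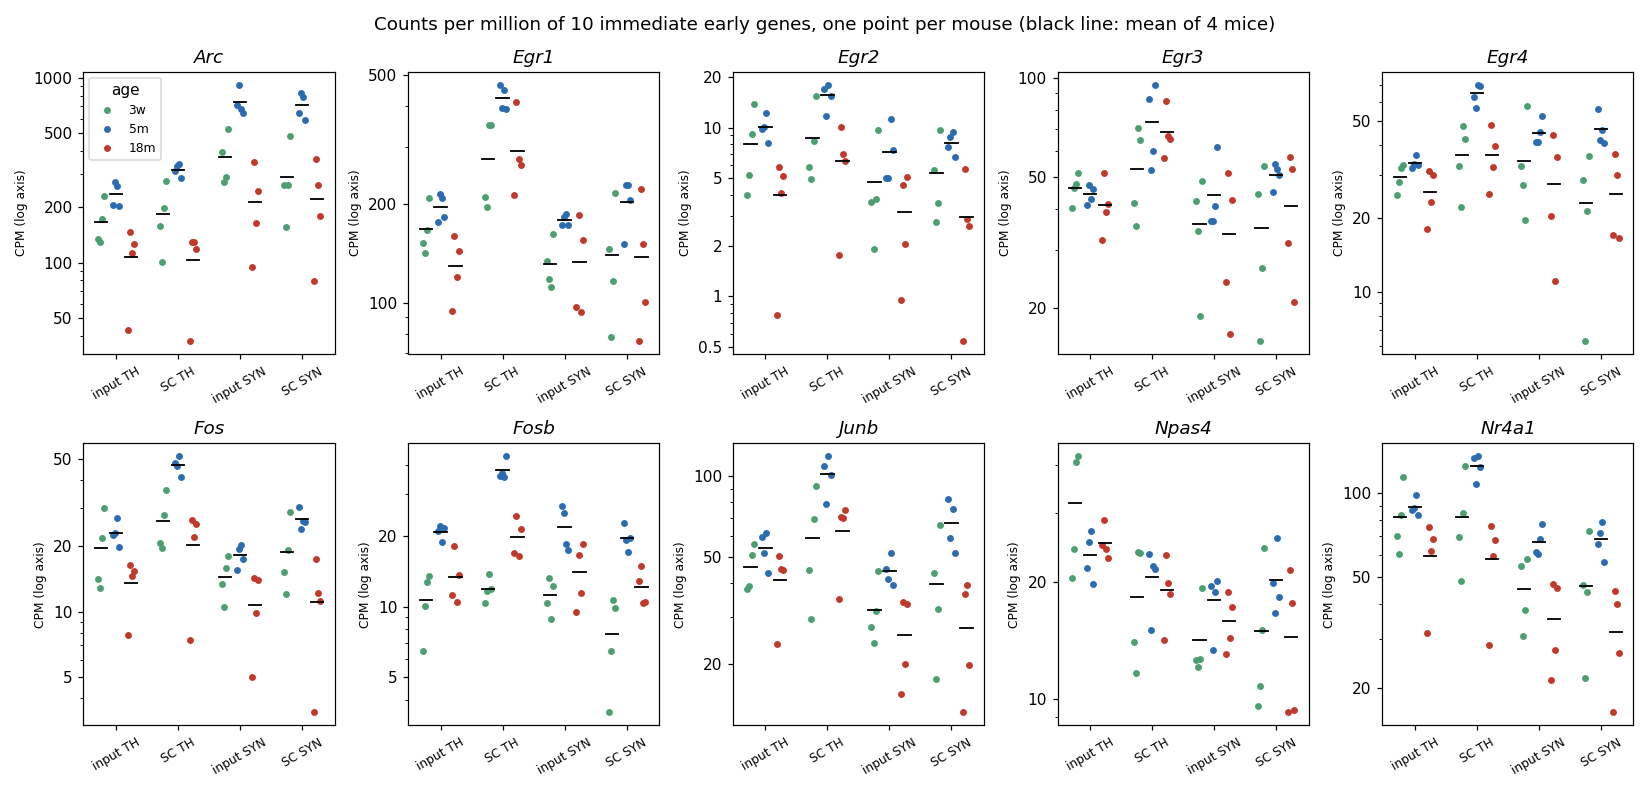
CPM (log axis) of each gene in the 4 fractions at 3w, 5m and 18m, with a point for each mouse and a black line at the mean of 4 mice. The 5m mice mostly lie closer together than those of the other ages, and 18m mice lie below all 5m mice in SC_TH for 7 of the 10 genes (6.35% of all genes).

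The synaptosome libraries were set against the homogenate libraries of the same kind, which asks which of these RNAs are enriched at synapses. In the ribosome pellets, Arc was higher in SYN than in TH and 8 of the other 9 members were lower. Arc was 2.01-fold higher, a log2 difference of 1.01 (SE 0.213, adjusted p = 0.000126, edgeR), and was higher in 12 of 12 mice, whose log2 ratios ran from 0.42 through a median of 1.03 to 1.49. At 5m, Arc stood at 644, 824, 785 and 589 CPM in SC_SYN of mice 191 to 194, against 314, 333, 340 and 286 CPM in SC_TH of the same mice. The ranges of SC_SYN and SC_TH overlapped at 3w, at 156.5 to 480.7 and 101.2 to 276.1 CPM. They also overlapped at 18m, at 79.15 to 364.5 and 37.55 to 129.5 CPM. Egr1 was 2.01-fold lower in SYN (log2 difference -1.01, SE 0.163, adjusted p = 3.81e-06, edgeR) and lower in 12 of 12 mice. In the 5m mice Egr1 stood at 151, 229, 230 and 207 CPM in SC_SYN and at 466, 396, 449 and 391.6 CPM in SC_TH. The nuclear receptor Nr4a1 was lower by 0.81, Egr2 by 0.80, the AP-1 genes Junb by 0.74, Fosb by 0.73 and Fos by 0.66, Egr3 by 0.58 and Egr4 by 0.51 on the log2 scale, with adjusted p from 2.52e-06 to 0.0115 (edgeR). Npas4 differed by -0.19 (SE 0.158, adjusted p = 0.276, edgeR). With the mouse as a block Npas4 also passed, at -0.23 (adjusted p = 0.0359, edgeR). The 9 calls stand against 79.2% of 16630 genes called in this comparison, 36.9% higher and 42.3% lower, so the number of calls is close to what the whole table shows, and the median log2 difference was -0.70 over the members and -0.08 over all genes. Both compartments are bulk samples, and synaptosomes are pinched-off endings and not whole cells. A difference in which cells or endings made up a sample cannot be told apart from a difference in the RNA each held.

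Before the cushion, Arc was again higher in synaptosomes, and Npas4, Nr4a1, Junb and Fos were lower. Arc was 2.42-fold higher in input_SYN than in input_TH (log2 difference 1.27, SE 0.173, adjusted p = 1.15e-07, edgeR) and higher in 12 of 12 mice, while Npas4 was lower by 0.74, Nr4a1 by 0.66, Junb by 0.50 and Fos by 0.38. These 5 calls compare with 84.1% of 17860 genes called, 36.7% higher and 47.4% lower. The median was -0.28 over the members and -0.17 over all genes. Fos lost its call when all 48 libraries were fitted together and without mouse 190, 191, 193 or 197, Egr2 passed without mouse 195 and Egr4 without mouse 189 or 197. With the mouse as a block 9 members passed, 2 higher and 7 lower, since Egr1 (-0.15), Egr2 (-0.51) and Egr3 (-0.22) were then lower and Egr4 (0.24) higher. TMM sets the bulk of genes near 0. With library size in its place the median of all genes moved to -0.63 in SC and -0.77 in input, and genes called higher and lower went from 6142 and 7034 to 3667 and 10617 in SC and from 6548 and 8464 to 3985 and 11972 in input. Arc stayed higher under that scaling, by 0.46 in SC and 0.68 in input, while all 9 other members were then lower in both, and Egr4 and Fosb turned from 0.27 and 0.10 to -0.33 and -0.50 in input.

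The ribosome pellet was then compared with its own input, a measure of how much of an RNA enters the pellet relative to other RNAs. The pellet also held nuclear RNAs, of which 7 summed to between 5309 and 13650 CPM in SC_TH. In TH, 6 members were higher in SC than in input and Npas4 was lower. Egr1 was 2.02-fold higher (log2 difference 1.01, SE 0.107, adjusted p = 1.91e-09, edgeR), in 12 of 12 mice. Fos was higher by 0.68, Junb by 0.64, Egr4 by 0.60, Egr3 by 0.57 and Fosb by 0.55, each in 11 of 12 mice. Npas4 was lower by 0.45 (SE 0.121, adjusted p = 0.00171, edgeR), in 10 of 12 mice. At 3w its input_TH libraries held 20.5, 24.3, 40.7 and 42.1 CPM and its SC_TH libraries 14.0, 11.7, 23.8 and 23.7 CPM, so each 3w mouse was lower in the pellet. At 5m Npas4 was higher in the pellet in 2 mice and lower in 2, and at 18m it was lower in 4. Arc differed by 0.18, Egr2 by 0.47 and Nr4a1 by 0.16, with adjusted p of 0.349, 0.0735 and 0.322 (edgeR). With the mouse as a block these 3 passed too, at 0.17, 0.48 and 0.15, and Egr2 also passed without mouse 195. By age, 1 member was higher and 1 lower at 3w (26.1% and 26.6% of all genes), 6 and 0 at 5m (29.9% and 32.2%) and 5 and 0 at 18m (31.3% and 32.7%), with member medians of 0.21, 0.81 and 0.59, and a difference between the ages in this ratio was not tested. Over all ages, the 7 calls compare with 75.8% of 18416 genes, 35.6% higher and 40.2% lower, and the median was 0.56 over the members and -0.04 over all genes.

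In synaptosomes the same ratio gave 0 calls among the 10 members in edgeR's quasi-likelihood test, where 43.2% of 14301 genes passed, 21.8% higher and 21.5% lower. Fosb alone had an unadjusted p under 0.05 and was the member that passed in DESeq2, at -0.33. The log2 differences ran from -0.32 for Fosb to 0.34 for Fos, with standard errors from 0.141 to 0.287, and the median of 0.07 was near the 0.01 of all genes. With the mouse as a block Fos (0.28) and Fosb (-0.34) passed, and Fosb passed without mouse 189 or 195. The difference between the compartments was tested over all 48 libraries. SC over input was lower in SYN than in TH for Egr1 by 0.89 (SE 0.203, adjusted p = 0.00035, edgeR), for Fosb by 0.85 (adjusted p = 0.000123) and for Egr4 by 0.81 (adjusted p = 0.00605), and it was higher for Npas4 by 0.53 (SE 0.211, adjusted p = 0.0375, edgeR). These 4 calls stand beside 43.5% of 18112 genes, 18.7% higher and 24.8% lower. Egr1, Fosb and Egr4 passed in each of the 17 alternatives run for them. Npas4 passed in 11 of 17 and lost its call without mouse 189, 190, 192, 193, 195 or 197. With the mouse as a block Arc (-0.32) and Fos (-0.35) passed as well.

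**Figure D2:**
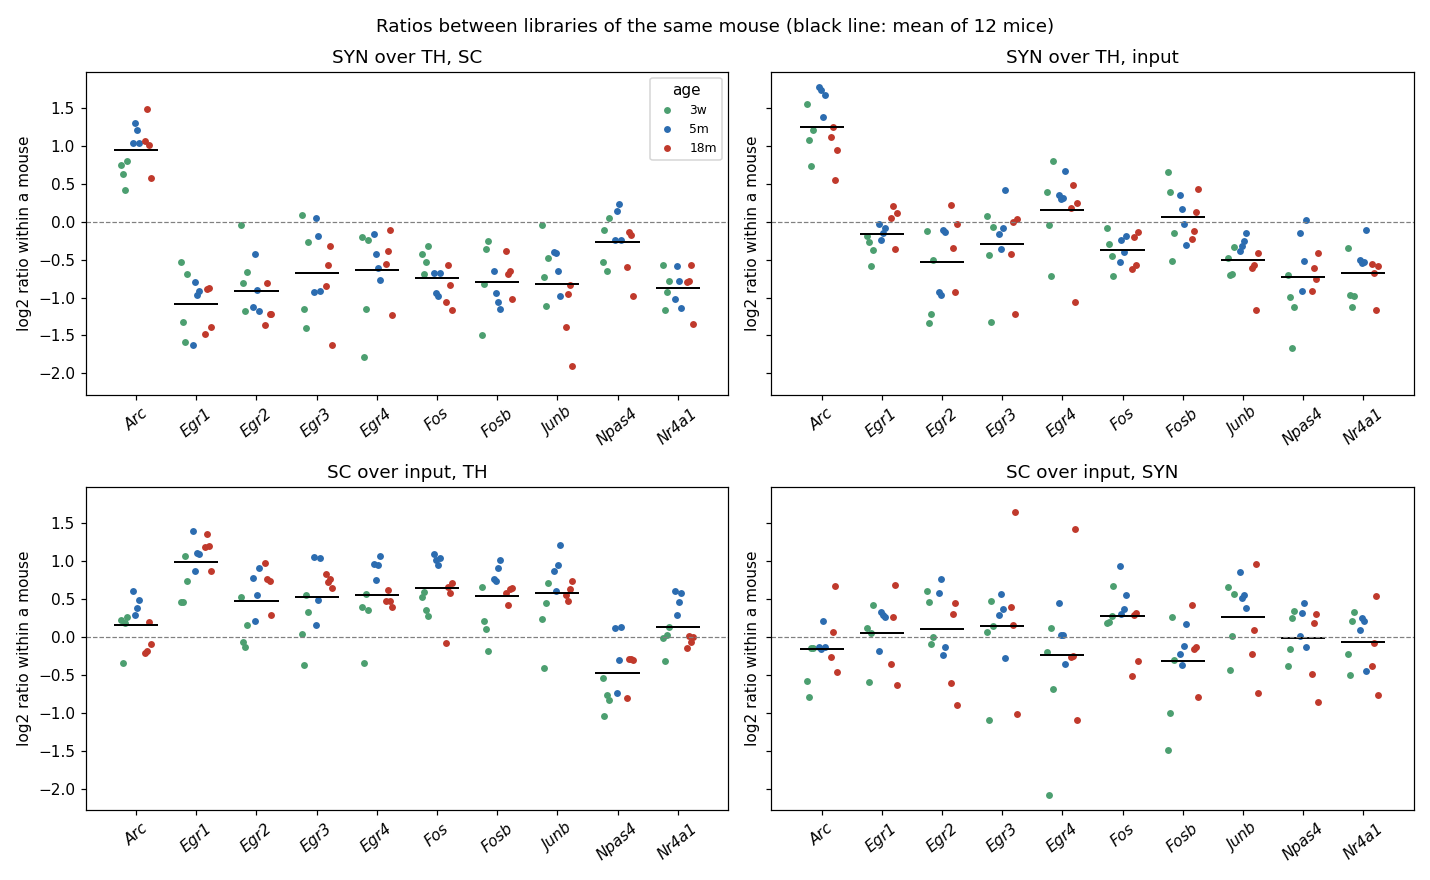
Log2 ratios between libraries of the same mouse for each gene, coloured by age, with a black line at the mean of 12 mice. Arc lies above 0 in 12 of 12 mice in both SYN over TH panels, and Egr1 lies above 0 in 12 of 12 mice for SC over input in TH.

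Age differences belong to the measure by which the genes came to attention, so they are described with no test read from them. At 18m against 5m the members were mostly lower. Arc stood at 203, 205, 260 and 273 CPM in input_TH at 5m and at 43.4, 112, 126 and 147 CPM at 18m. In SC_SYN it stood at 589, 644, 785 and 824 CPM at 5m and at 79.2, 178, 262 and 365 CPM at 18m, so in both fractions every 18m mouse lay below every 5m mouse. Its log2 differences were -1.14 in input_TH, -1.60 in SC_TH, -1.80 in input_SYN and -1.67 in SC_SYN. Fos behaved alike at lower levels, with 41.3, 46.4, 48.2 and 51.8 CPM at 5m in SC_TH and 7.42, 22.0, 25.4 and 26.2 CPM at 18m. Nr4a1 went from 108, 124, 133 and 136 CPM to 28.5, 59.2, 68.1 and 76.0 CPM in the same fraction. Neither gene had an 18m mouse within the 5m range in any of the 4 fractions. Egr2 showed a log2 difference of -1.31 in SC_TH and -1.35 in input_TH, from means of 15.5 ± 2.72 and 10.1 ± 1.66 CPM at 5m (SD, n = 4). Junb went from 78.7, 102, 109 and 119 CPM to 34.95, 69.95, 70.6 and 74.9 CPM in SC_TH, and from 51.6, 59.1, 75.8 and 82.2 CPM to 13.2, 19.9, 36.5 and 39.2 CPM in SC_SYN. Egr4 went from 56.4, 62.8, 69.7 and 70.4 CPM to 25.2, 32.5, 39.4 and 48.3 CPM in SC_TH. For both genes the ages did not overlap in the ribosome pellets, while in input_TH the mice of Junb did. Npas4 and Egr3 stood apart from the rest. For Npas4 the log2 differences lay between -0.41 and 0.11, and for Egr3 between -0.36 and -0.10, and the mice of both ages overlapped in all 4 fractions.

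Counted over the members, 18m mice lay entirely below 5m mice for 7 genes in input_TH (background 8.25% of genes), 7 in SC_TH (6.35%), 4 in input_SYN (2.55%) and 7 in SC_SYN (6.9%). At 5m against 3w, all 5m mice lay above all 3w mice for Fosb in input_TH (8.61%), for 5 genes in SC_TH (9.2%), 4 in input_SYN (6.74%) and 3 in SC_SYN (11.4%). In the opposite direction 0 members were separated, at 18m against 5m (9.84%, 3.51%, 3.63% and 4.74% of genes in these fractions) and at 5m against 3w (9.36%, 8.65%, 5.27% and 6.75%). Fosb was the member with all 5m mice above all 3w mice in each of the 4 fractions. It stood at 35.6, 35.8, 37.0 and 43.7 CPM in SC_TH at 5m, against 10.4, 11.7, 11.8 and 13.7 CPM at 3w, a log2 difference of 1.66, and at 16.5, 16.8, 21.4 and 24.2 CPM at 18m. In SC_SYN it stood at 3.55, 6.48, 9.85 and 10.7 CPM at 3w, 17, 19.3, 19.6 and 22.7 CPM at 5m and 10.4, 10.5, 12.9 and 14.9 CPM at 18m. Its 18m values in SC_TH lay between those of both other ages with no overlap on either side, while in SC_SYN they overlapped those at 3w. The median log2 difference over the members at 5m against 3w was 0.23 in input_TH, 0.81 in SC_TH, 0.45 in input_SYN and 0.52 in SC_SYN. At 18m against 5m it was -0.60, -0.88, -0.68 and -0.94, where the median of all genes lay between 0.00 and 0.01.

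**Figure D3:**
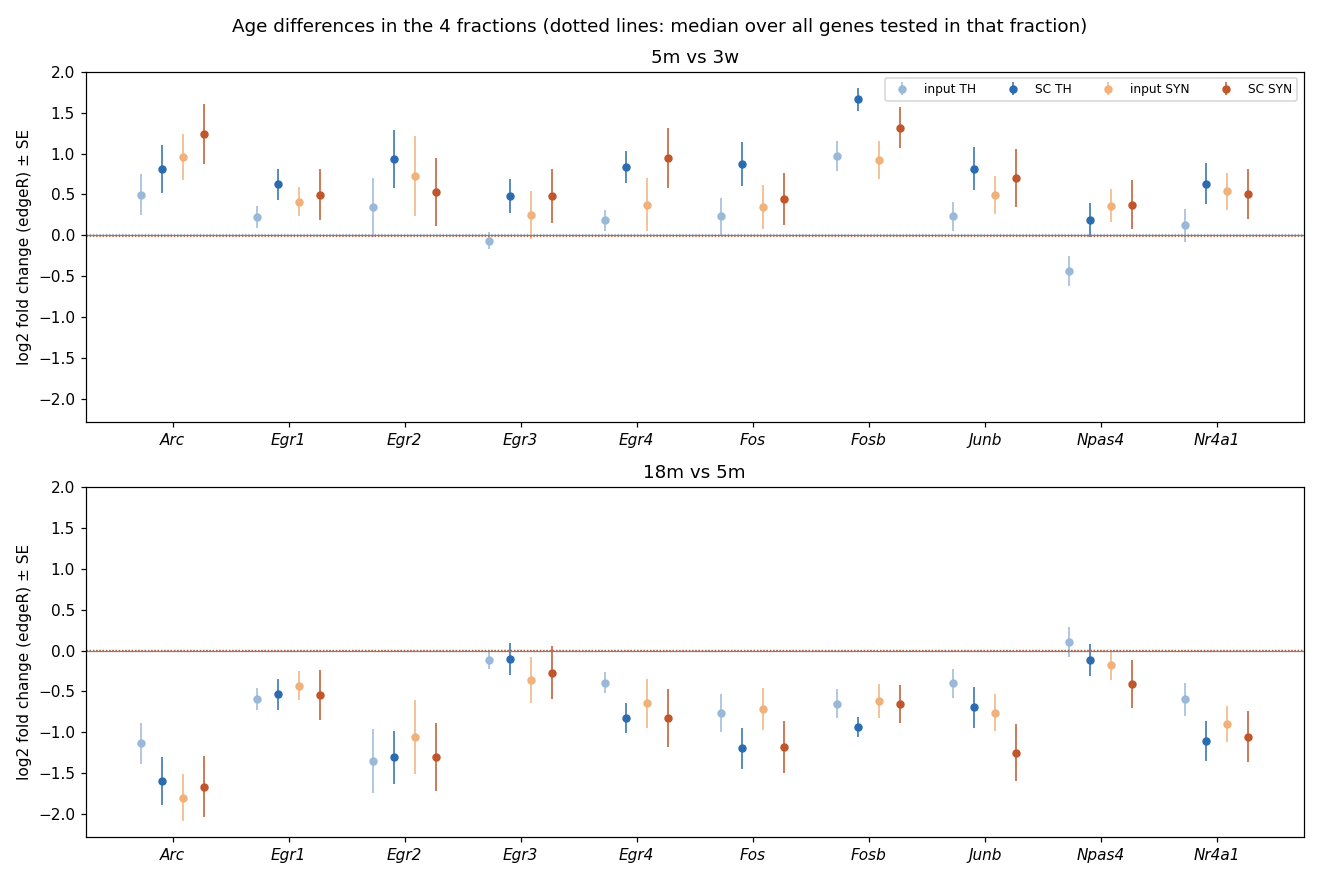
Log2 fold changes of each gene between ages in the 4 fractions, with the standard error of the edgeR fit as bars and dotted lines at the median of all genes tested. Arc has log2 differences from -1.80 to -1.14 at 18m against 5m, and Npas4 and Egr3 lie nearest to 0.

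The edgeR calls of the members by age are given beside those of the whole table, with nothing read from them. At 18m against 5m, 6 members were called lower in input_TH (15.5% of all genes called, 8.18% higher and 7.35% lower), 6 in SC_TH (2.17%, 0.377% and 1.79%), Arc in input_SYN (0.139%, 0.0308% and 0.108%) and 0 in SC_SYN (0.014%, 0.00702% and 0.00702%), where 7 had an unadjusted p under 0.05 and DESeq2 called 4. At 5m against 3w, Fosb was called higher in input_TH (11.8%, 4.76% and 7.05%), 5 members in SC_TH (17.9%, 9.48% and 8.46%) and Fosb in input_SYN (3.22%, 1.28% and 1.94%) and in SC_SYN (8.05%, 4.02% and 4.02%). Both age comparisons use the same 5m libraries. The choice of fit and single mice moved these counts. With all 48 libraries in 1 fit, the calls at 18m against 5m became 0 in input_TH and 5 in SC_SYN, and those at 5m against 3w became 3 in SC_TH and 3 in SC_SYN. At 18m against 5m the 6 calls in input_TH became 2 without mouse 192 or 197 and 3 without mouse 193, 194, 195 or 198, and those in SC_TH became 2 without mouse 193 or 197 and 3 without mouse 198. The call in input_SYN was lost without mouse 191 or 192. At 5m against 3w the 5 calls in SC_TH became 2 without mouse 187, 188, 191, 193 or 194 and 8 without mouse 190. In input_TH 2 members were called without mouse 187 and in SC_SYN 2 without mouse 190, and Fosb in input_SYN was lost without mouse 187, 188, 189, 191, 192 or 193. Depth differed between these groups. The median total in SC_TH was 4448523 reads at 3w, 8643431 at 5m and 12328632 at 18m, and its part in these values was not tested.

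Beyond age and fraction, the members moved together from mouse to mouse. When each library was expressed as its deviation from the mean of its age and fraction, all 45 pairs of members correlated positively in each fraction, with a median Pearson's r of 0.83 in input_TH, 0.79 in SC_TH, 0.71 in input_SYN and 0.78 in SC_SYN (across 12 libraries per fraction, which share their depth and scaling). Nr4a1 followed the mean of the other 9 with r of 0.95, 0.97, 0.92 and 0.97 in these fractions, and Fosb with 0.68, 0.52, 0.56 and 0.18. Fosb had the lowest r of the 10 in each fraction but input_TH, where Npas4 had 0.61. Of the 12 mice, 188, 190, 195, 196 and 193 had a mean deviation of the members on the same side of 0 in all 4 libraries, and the other 7 changed side. Mouse 195 (18m) lay below its group mean for 10 of 10 members in input_TH, SC_TH and input_SYN and for 9 in SC_SYN, by means of -0.67, -0.75, -0.63 and -0.80 on the log2 scale. Mouse 196 (18m) lay above it for 10 of 10 in all 4 fractions, by 0.42, 0.46, 0.58 and 0.72. Among the 3w mice, 190 lay high, by 0.44, 0.51, 0.53 and 0.78, and 188 low, by -0.26, -0.55, -0.30 and -0.79. The mean deviation of the members correlated between fractions of the same 12 mice with r from 0.66 (input_SYN and SC_SYN) to 0.92 (input_TH and SC_TH). Taken across all expressed genes within a mouse, the correlation of deviations had medians from -0.01 to 0.11 for these pairs of fractions. That r runs over genes and the r of the members over mice, so their sizes cannot be compared.

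**Figure D4:**
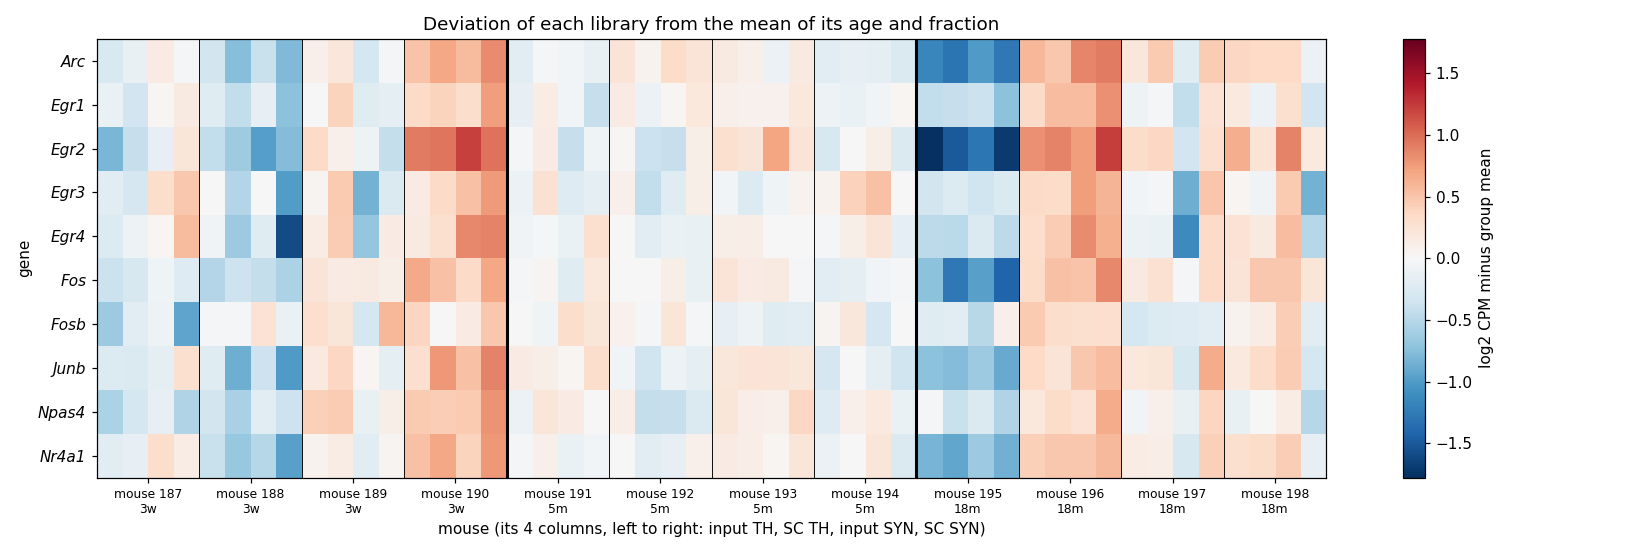
Deviation of log2 CPM from the mean of the same age and fraction for each gene (rows) in the 48 libraries, ordered by mouse with 4 columns each, blue below and red above the mean. Columns of mouse 195 are blue and those of mice 190 and 196 red for nearly all genes, while the 4 mice of 5m are pale.

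The spread between mice was smallest at 5m. The SD of log2 CPM over 4 mice was lowest at 5m for 9 of 10 members in input_TH, 9 in SC_TH, 8 in input_SYN and 10 in SC_SYN, against 33.7%, 23%, 42.8% and 49.6% of all genes tested. The median SD of the members in SC_TH was 0.50 at 3w, 0.15 at 5m and 0.46 at 18m, where the medians of all genes were 0.20, 0.20 and 0.14. In SC_SYN it was 0.71, 0.21 and 0.68, against 0.28, 0.21 and 0.26. At 5m the members thus varied about as much between mice as other genes did, and at 3w and 18m more. Egr2 at 18m in SC_SYN had the widest spread of the 120 combinations of gene, fraction and age, from 0.543 to 5.71 CPM, from few reads.

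The 5 protein-coding genes outside the list whose deviations followed the members' mean deviation most closely, of 9765 with at least 5 CPM in each fraction, were Dusp6 (r = 0.89), Trib1 (0.86), B4galt7 (0.86), Ier5 (0.85) and Cckbr (0.85) over the 48 libraries. The median r of these candidates was 0.03 and the 95th percentile 0.65. Dusp6, a phosphatase that dampens growth factor signalling, followed them in all 4 fractions, with r of 0.91, 0.93, 0.75 and 0.95 in input_TH, SC_TH, input_SYN and SC_SYN. Trib1, Ier5 and Dusp6 are themselves in the lists of activity-induced genes described next, and Cckbr codes for a cholecystokinin receptor and B4galt7 for a galactosyltransferase of proteoglycan synthesis.

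Another 4 lists of genes of the same pathway were compared with edgeR, and their counts are read against the shares of all genes given above for each comparison. The list names are labels, and not every gene is known to act as its list is named. In SC_SYN against SC_TH, where 42.3% of all genes were lower and 36.9% higher, 12 of 15 tested genes of other immediate early transcription factors were lower and 0 higher, with Klf4 (-2.15), Klf2 (-1.89) and Klf10 (-0.91) at the top. Of 13 genes of a mixed list labelled as dampening the signal, 10 were lower and 0 higher, led by Errfi1 (-0.82), Dusp5 (-0.75) and Dusp6 (-0.69). Of 15 effector genes, a mixed list of secreted, synaptic and signalling proteins, 10 were higher and 5 lower, led by Scg2 (1.89), Vgf (1.86) and Pcsk1 (1.84), which code for granule proteins and a prohormone convertase. Of 14 upstream factors 4 were higher and 10 lower, among them Mef2c (-0.93) and Mef2a (-0.89). The list medians were -0.51, -0.53, 1.04 and -0.46, where all genes had -0.08. In input, where 47.4% of genes were lower and 36.7% higher, 2 of 15 other transcription factors were higher and 9 lower (Klf2 -2.76, Klf4 -2.51, Ier2 -0.85), and 0 and 11 of 13 dampening genes (Gadd45g -0.94, Rgs2 -0.91, Dusp1 -0.66). There 10 of 15 effector genes were higher and 4 lower (Pcsk1 2.55, Vgf 2.47, Inhba 2.28), and 4 and 4 of 14 upstream factors (Srf 0.97, Elk4 0.65). With library size in place of TMM, 10 effector genes were still higher and 5 lower in both comparisons, while the upstream factors went to 0 higher and 10 lower in SC and to 1 and 10 in input, and the 2 transcription factors called higher in input were lost.

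For SC against input in TH, where 35.6% of genes were higher and 40.2% lower, 12 of 15 effector genes were higher and 1 lower, led by Pcsk1 (1.21), Inhba (1.13) and Vgf (1.00). The other lists had 7 of 16 transcription factors higher and 3 lower (Jun 0.58, Klf2 -0.55, Klf4 -0.37), 5 and 1 of 13 dampening genes (Errfi1 0.60, Dusp4 0.48, Gadd45b 0.44) and 6 and 2 of 14 upstream factors (Crebbp 0.57, Camk4 0.48, Mef2c 0.44). In SYN, where 21.8% were higher and 21.5% lower, the same ratio gave 1 higher and 2 lower of 13 transcription factors (Btg2 -0.46, Jun 0.27, Fosl2 -0.20), 2 and 0 of 13 dampening genes (Gadd45b 0.40, Rgs2 0.34), 5 and 4 of 15 effector genes (Arl5b -0.69, Scg2 0.52, Nrn1 -0.50) and 0 and 6 of 14 upstream factors (Elk1 -0.44, Mef2c -0.43, Mef2a -0.38). The ratio was lower in SYN than in TH for 9 of 15 effector genes (Inhba -0.995, Pcsk1 -0.73, Nrn1 -0.73), 9 of 14 upstream factors (Mef2c -0.83, Camk4 -0.63, Crebbp -0.60) and 4 of 15 transcription factors (Fosl2 -0.52, Nr4a2 -0.39, Nr4a3 -0.33), with 0 higher in these lists, beside 24.8% of all genes lower. Of 13 dampening genes Errfi1 was lower (-0.62) and Gadd45g higher (0.60). With library size the numbers lower were 6, 7 and 1.

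The lists were also counted by age, and a difference between lists was not tested. Like the members, the lists were chosen with earlier results of these data known. Their counts by age are therefore descriptions, given beside the shares of all genes with nothing read from them. In SC_TH at 18m against 5m, where 1.79% of genes were lower, 6 of 15 other transcription factors fell, including Klf4 (-1.05), the clock gene Per1 (-0.94) and Klf2 (-0.93), and 4 of 13 dampening genes fell, including Sik1 (-0.96), Dusp5 (-0.79) and Dusp1 (-0.69). Of 15 effector genes Arl4d fell (-0.87), and of 14 upstream factors 0 passed in edgeR, with a median of 0.00. In input_TH, where 7.35% of genes were lower and 8.18% higher, 6 of 16 other transcription factors fell and 1 rose, led by Klf10 (-0.81), Klf4 (-0.81) and Klf2 (-0.75), and 8 of 13 dampening genes fell, led by Tiparp (-1.04), Dusp5 (-0.67) and Sik1 (-0.62). There 3 of 15 effector genes fell and 1 rose (Arl5b -0.57, Vgf 0.47, Ptgs2 -0.45), and 3 of 14 upstream factors fell, among them Creb1 (-0.44) and Ep300 (-0.14).

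At 5m against 3w in SC_TH, where 9.48% of genes were higher and 8.46% lower, 9 of 15 other transcription factors rose, led by Maff (1.43), Per1 (0.96) and Klf2 (0.85), and 4 of 13 dampening genes rose, led by Dusp4 (1.15), Dusp5 (1.03) and Sik1 (0.75). Of 15 effector genes 4 rose and 1 fell (Ptgs2 0.56, Nrn1 -0.47, Vgf 0.42), and of 14 upstream factors 2 rose and 2 fell, among them Camk4 (-0.69) and Crtc1 (0.47). In input_TH, where 4.76% of genes were higher and 7.05% lower, 5 of 16 transcription factors rose (Maff 1.68, Klf4 1.29, Klf2 1.22), 5 of 13 dampening genes rose (Dusp4 0.67, Dusp5 0.62, Sik1 0.53), 1 effector gene rose and 2 fell (Ptgs2 0.59, Nptx2 -0.59, Nrn1 -0.39), and Camk4 fell (-0.62). The synaptosome fractions had fewer calls. In input_SYN, Per1 (0.88), Fosl2 (0.48), Vgf (0.59) and Scg2 (0.41) rose and Nrn1 (-0.42) and Camk4 (-1.05) fell at 5m against 3w, and Arl4d fell (-1.18) at 18m against 5m. In SC_SYN, Per1 (1.18), 3 dampening genes (Gadd45g 0.99, Sik1 0.97, Dusp4 0.86), Vgf (0.74), Crtc1 (0.81) and Srf (0.59) rose and Nrn1 (-0.64) and Camk4 (-0.99) fell at 5m against 3w. At 18m against 5m in SC_SYN 0 genes of the 4 lists passed in edgeR, with list medians from -0.49 for the dampening genes to 0.31 for the upstream factors.

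The defining markers of neurons and glia were detected in every group, and some lists moved with the comparisons above. The summed level of 7 nuclear RNAs lay between 16580 and 19510 CPM in input_TH and between 5309 and 13650 in SC_TH, and between 881 and 4350 in the SYN libraries. In SC_TH it was 10370 to 13650 CPM at 3w, 7424 to 10990 at 5m and 5309 to 6324 at 18m, while in SC_SYN it was 1093 to 2306 at 5m and 2307 to 3557 at 18m. The 6 endothelial markers summed to 63.5 to 224 CPM in TH and to 4.49 to 22.9 CPM in SYN, and the 6 astrocyte markers to 579 to 1134 CPM in TH and 1898 to 3717 in SYN. The 8 genes listed for excitatory neurons include Snap25, which is not confined to these cells. Their sums overlapped between 5m and 18m in SC_TH, at 7569 to 8255 and 7632 to 8882 CPM. The sums of the 6 inhibitory neuron markers did not, at 581 to 758 and 767 to 903 CPM. Between 3w and 5m the median sum of 6 oligodendrocyte markers went from 5561 to 2259 CPM in input_TH, 3968 to 1880 in SC_TH, 9219 to 3254 in input_SYN and 9470 to 3534 in SC_SYN, and all 6 genes were lower in each fraction. The 6 microglia markers went from a median of 463 to 807 CPM in SC_SYN and from 330 to 479 in input_SYN. In SC_TH their median went from 217 to 261 CPM, and in input_TH from 171 to 164 CPM. The part of these lists in the members' differences was not tested.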

How the data were processed

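The deposited counts are reads per gene for 48 libraries, made by the authors from rRNA-depleted, strand-marking libraries with bcl2fastq 2.20.0.422, TopHat2 2.1 on mouse GRCm38 and featureCounts without strand. The adaptors carried molecular identifiers, whose use in counting is not given in the sources used here. Groups came from the sample labels, with 4 mice per age. Here counts were fitted with edgeR 4.0.16 (R 4.3.3, quasi-likelihood test, TMM scaling, filterByExpr, Benjamini-Hochberg threshold 0.05), with DESeq2 1.42.0 as an alternative. Fraction comparisons average over the 3 ages, and age comparisons were fitted within a fraction. P-values and intervals rest on the spread between libraries of the same age and fraction, which come from different mice. The main fits of the fraction comparisons treat the libraries of a mouse as independent. The fits were tested on simulated counts with known fold changes, drawn with no effect shared by the libraries of a mouse. That simulation therefore cannot show how the fits behave on paired libraries. The 10 members and all gene lists were chosen with earlier results of these data known. All members are named. In the other pathway lists, up to 3 called genes with the largest change per comparison are named. Some items that this rule names are not reported here. Scaling of these lists by library size was added after seeing the data. Of the genes outside the list, the 5 protein-coding ones most like the members' mean deviation are named. Libraries with the same mouse number come from the same animal and so are paired. Taken across all genes within a mouse, the correlation of deviations between fractions had medians of -0.01 to 0.11. Taken across the 12 mice, the mean deviation of the members correlated with r of 0.66 to 0.92. The pairing was thus strong for that mean. These measures are unlike, so they cannot show whether the pairing was particular to the members. The fit with the mouse as a block is given where it changed a call. Symbols matched for 48144 of 48526 gene identifiers. Library totals of 1780267 to 18590040 reads set the precision, which is lowest for Egr2. Alternatives were scaling by library size, other filters, DESeq2, a single fit of all libraries, the mouse block and leaving out each mouse.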

Additional observations from a re-analysis of the deposited data

Results flagged for a closer look

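In 4 of 120 groups of 4 mice, 1 mouse stood apart by a gap that exceeded Dixon's critical value of 0.829 as a share of the group's range, where chance gives about 6. At 18m in SC_TH, mouse 195 had 37.6 CPM of Arc against 119 to 130 in the other mice (gap 0.881 of the range) and 34.95 CPM of Junb against 69.95 to 74.9 (0.875). Without it the log2 difference between 18m and 5m went from -1.60 to -1.32 for Arc and from -0.69 to -0.49 for Junb. In input_SYN, mouse 194 had 61.8 CPM of Egr3 at 5m against 36.8 to 40.9 (0.837), and mouse 190 had 19.3 CPM of Npas4 at 3w against 12.1 to 12.6 (0.924). Without mouse 194 the difference between 5m and 3w went from 0.25 to 0.05 for Egr3, and without mouse 190 it went from 0.36 to 0.53 for Npas4.

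The ratio of ribosome pellet to input differed between synaptosomes and homogenate for 4 members by a test of that difference over 48 libraries. The log2 ratio in SYN minus that in TH was -0.89 for Egr1, -0.85 for Fosb, -0.81 for Egr4 and 0.53 for Npas4. The depth of the synaptosome inputs was the lowest, with a median of 3756951 reads, and its part in these differences was not tested.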

How the results depend on the processing

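The 9 calls for SYN against TH in SC ranged from 8 to 10 over the other settings and were 9 with each mouse left out. For SYN against TH in input the 5 calls became 9 with no filter, 10 with library size in place of TMM and 9 with the mouse as a block, and library size turned Egr4 to -0.33 and Fosb to -0.50. For SC against input in SYN the 0 calls became 1 in DESeq2, 2 with no filter and 2 with the block. The block made 12 further calls of members over the fraction comparisons, ended none, and could not be fitted by age, since each mouse has 1 age. With no filter, calls at 5m against 3w became 3 in input_TH, 9 in SC_TH, 3 in input_SYN and 3 in SC_SYN, and at 18m against 5m 3 in input_SYN and 4 in SC_SYN. With all 48 libraries in 1 fit they became 3 in SC_TH and 3 in SC_SYN at 5m against 3w, and 0 in input_TH and 5 in SC_SYN at 18m against 5m. DESeq2 gave 2 in SC_TH and 2 in SC_SYN at 5m against 3w, and 2 in input_SYN and 4 in SC_SYN at 18m against 5m. Leaving out each mouse gave 1 to 2 calls in input_TH, 2 to 8 in SC_TH, 0 to 1 in input_SYN and 1 to 2 in SC_SYN at 5m against 3w. At 18m against 5m it gave 2 to 7 in input_TH, 2 to 7 in SC_TH, 0 to 1 in input_SYN and 0 in SC_SYN. It gave 0 to 1 for SC against input in SYN, 7 to 8 in TH, 4 to 6 for SYN against TH in input and 3 to 4 for the difference between compartments. Over single members and comparisons, leaving out a mouse left 1153 results on the same side of the threshold, ended 69 calls, made 18 and reversed none. Apart from the settings themselves, the cause of these changes was not tested. Egr2, with the fewest reads, had no value in SYN fits that required 10 counts in every library.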
